A study of Mus musculus with 6 samples.

Results

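Among the bright transcripts of B16 mouse melanoma cells, 148 genes had a signal after cyclic hypoxia followed by 1 h of reoxygenation that was 2-fold or more below each of 3 other arrays. The brightest probe set stood for its gene. A gene was chosen where the mean of that probe set over 6 arrays was 100 units or more and where the signal on the array of cyclic hypoxia plus reoxygenation met the limit against normoxia plus 1 h, against cyclic hypoxia at its end and against chronic hypoxia plus reoxygenation. Symbols of certain families and single genes were set aside by the rule. That left 3439 eligible genes of 3573 with a mean signal of 100 or more, among 12393 genes named on the array. The 148 chosen genes were 4.3% of the eligible genes, and 1 gene (0.0291%) stood 2-fold or more above the same 3 arrays. That gene reached a mean of 100 units only through the array of cyclic hypoxia plus reoxygenation.

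The series measured expression in B16 cells, an established mouse melanoma line, on 6 Affymetrix arrays with 1 array per group and no replicate. All cells were moved to medium without serum 2 h before the exposure began. Normoxia lasted 3 h, chronic hypoxia was 3 h at less than 1% oxygen, and cyclic hypoxia consisted of 3 bouts of 1 h with breaks of 30 min in which oxygen was restored. Each regime was collected at its end and again after 1 h more, which was reoxygenation for the hypoxic cells and further normoxia for the controls. The cyclic regime took longer in all, and the labels give no normoxia control of that duration. The culture medium had been alpha MEM with 10% fetal calf serum, and the labels name no genetic change or drug in any group. In the values below, a pair of signals for a regime is given in the order of collection, at the end of the exposure first and 1 h later second.

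The amount of a messenger RNA in a cell reflects how fast it is transcribed and processed and how fast it is degraded. Low oxygen stabilises hypoxia-inducible factors (HIF), which raise the transcription of genes for glucose use, blood vessel growth and iron uptake, and the return of oxygen lets prolyl hydroxylases mark these factors for degradation again. Hypoxia that comes and goes is a known feature of tumours, where vessels open and close, and each return of oxygen brings a burst of reactive oxygen species. Among the chosen genes are some for RNA-binding proteins, ubiquitin ligases, nuclear transport receptors and proteins that hold or unwind chromosomes.

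The cells carried the markers of their lineage. All 8 measured melanocyte genes had a mean signal of 100 or more, and their summed signal ran from 19689 to 26784 units, with 25678 on the array of cyclic hypoxia plus reoxygenation. The 6 fibroblast, 6 immune, 5 endothelial and 4 keratinocyte markers measured were under 100 units on every array, the highest being 44.5 units (Cd68). The array of cyclic hypoxia plus reoxygenation had the lowest median signal over all probe sets (15.9 units, against up to 19.3 elsewhere) and correlated least with the others on average (0.940, against 0.962 to 0.966, across probe sets, which are not independent replicates). Its control probe sets for Actb gave a ratio of 3′ to 5′ signal of 1.17, the lowest of the 6 arrays, and the highest was 1.25. The 12 probe sets for poly(A) control transcripts averaged 2.20 times their normoxia end level on that array and 1.80 times on the cyclic hypoxia end array, against 1.23 to 1.38 on the other arrays. Hybridization controls stood at 1.09 times, within their range of 0.853 to 1.34. The part of these array differences in the results below was not tested.

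The chosen genes kept a steady signal through normoxia and chronic hypoxia. Their median signal was 198 and 204 units on the normoxia arrays, 216 and 214 on the chronic hypoxia arrays, and 164 and 66.5 on the cyclic hypoxia arrays. The last array was the lowest of the 6 for every chosen gene, as it was for 946 (27.5%) of the eligible genes. The median log2 difference of the chosen genes on that array was -1.68 against normoxia plus 1 h, -1.32 against the end of cyclic hypoxia and -1.68 against chronic hypoxia plus reoxygenation, which leaves 31.1%, 40.1% and 31.2% of the signal. These values chose the genes and are a description. Over all eligible genes, the medians of the same differences were 0.04, 0.02 and 0.06. In RNA from a whole culture, fewer cells of a type and less RNA per cell cannot be told apart.

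**Figure D1:**
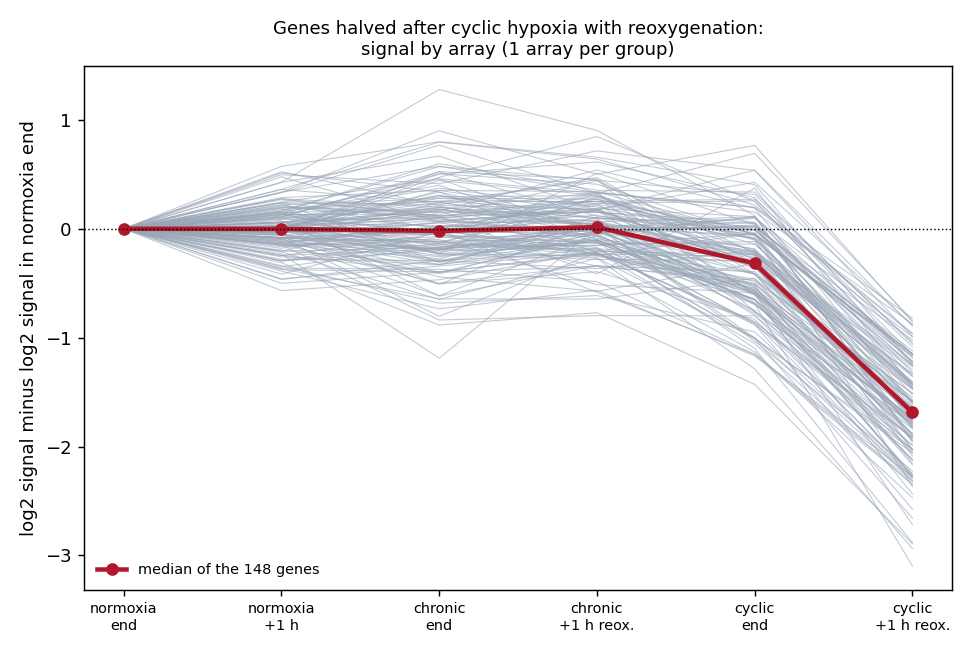
Log2 signal of each of the 148 chosen genes minus its own value in normoxia at the end of exposure (y axis, log2 units) on the 6 arrays (x axis), 1 thin line per gene and the median as a thick line. The median stays near 0 through both normoxia and both chronic hypoxia arrays, lies at -0.32 at the end of cyclic hypoxia and at -1.69 after cyclic hypoxia with reoxygenation.

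The chosen genes kept some signal on the array of cyclic hypoxia plus reoxygenation. The lowest was 25.003 units, above the floor of 2.10 units under which values were not told apart and the median of 15.9 units over all probe sets there. That floor is a percentile of all values and not a detection limit, so whether a transcript was lost was not tested. The mean signal of the rule included this array, and 170 genes met the rule with the mean of the 5 other arrays. There, 48 genes were under 50 units and 115 under 100. They were also not the brightest of the eligible genes, with a median mean signal of 175 units against 249 for all eligible genes, and 7 of them reached a mean of 500. For each gene the smallest of its 3 log2 drops (against the 3 arrays of the rule) was taken as its gap. The gap ran from 1.00 to 2.41 with a median of 1.26, and in 28 genes the signal was a 3-fold or greater step below the lowest of the 3 arrays. The array lay 2-fold or more below normoxia at the end of exposure in 138 of the 148 (and in 7.94% of the eligible genes), and below all 5 other arrays in 132. By the rule, any eligible gene below all 5 is a chosen gene. These counts use the array that chose the genes and are a description.

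At the limit itself, the genes just inside were Bet1, Mtmr6 and Rmnd5a, at 49.9%, 49.7% and 49.7% of the lowest of the 3 arrays. Just outside were Ppp1cb, Zc3h14 and Dnaja1, at 50.02%, 50.03% and 50.2%. There were 34 chosen genes with a gap under 1.1, and 44 eligible genes lay between 0.9 and 1, so the edge of the set runs through a continuous range of values.

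The widest gap belonged to Ube3a, which encodes a ubiquitin ligase. It had signals of 350.5 and 327 units in normoxia, 413 and 373 in chronic hypoxia, and 217 and 41.0 in cyclic hypoxia. Thus its end-of-cycle value was already the second lowest of the 6, and the last array was at 18.9% of that value. Fmr1 encodes an RNA-binding protein that represses translation. Its signals were 202 and 214 in normoxia, 215 and 193 in chronic hypoxia, and 134 and 30.6 in cyclic hypoxia. Both genes held their level through chronic hypoxia and its reoxygenation. Other probe sets of Ube3a had mean signals of 5.94, 11.1 and 18.2 units, and those of Fmr1 7.52 and 8.72 units. The decrease of each gene thus rests on its brightest probe set alone.

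Another pattern among the widest gaps was a steady level up to the last array. Atad1, an ATPase that extracts misplaced proteins from the mitochondrial outer membrane, had 151 and 149.7 units in normoxia, 169 and 127 in chronic hypoxia, and 147 and 29.2 in cyclic hypoxia. Scfd1, which regulates membrane fusion between the endoplasmic reticulum and the Golgi, had 117 and 138, then 122 and 133, then 126 and 30.4. Cstf3, a subunit of the factor that promotes cleavage of messenger 3′ ends, had 141 and 147, then 174 and 151, then 146 and 41.2. In these 3 genes the 5 other arrays lay close together and the last cyclic array stood apart from all of them.

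Pum2, a Pumilio protein that binds and represses messengers, had 323 and 315 units in normoxia, 439 and 399.97 in chronic hypoxia, and 301 and 79.0 in cyclic hypoxia. Clcn3, a chloride and proton exchanger of endosomes, was at its brightest probe set the 1 chosen gene 2-fold or more higher at the end of chronic hypoxia. Its signals were 151 and 203 in normoxia, 366 and 282 in chronic hypoxia, and 164 and 38.7 in cyclic hypoxia. Other probe sets of Clcn3 were at 52.8% and 54.2% of the lowest of the 3 arrays. At the end of exposure they had 61.4 and 92.2 units in normoxia against 138 and 109 in chronic hypoxia. The other genes of the 12 widest gaps were Rbm25 (a splicing factor), Cul4b (a scaffold of ubiquitin ligases), Stag2 (a cohesin subunit), Bpnt2 (a Golgi nucleotidase) and Ubxn2a (an adaptor of the p97 ATPase). Their gaps ran from 1.71 to 1.79, and their signals on the last array from 31.3 to 42.6 units. Other probe sets of Bpnt2 were at 81.8% and 60.6% of the lowest of the 3 arrays, and that of Rbm25 was at 48.2%.

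**Figure D2:**
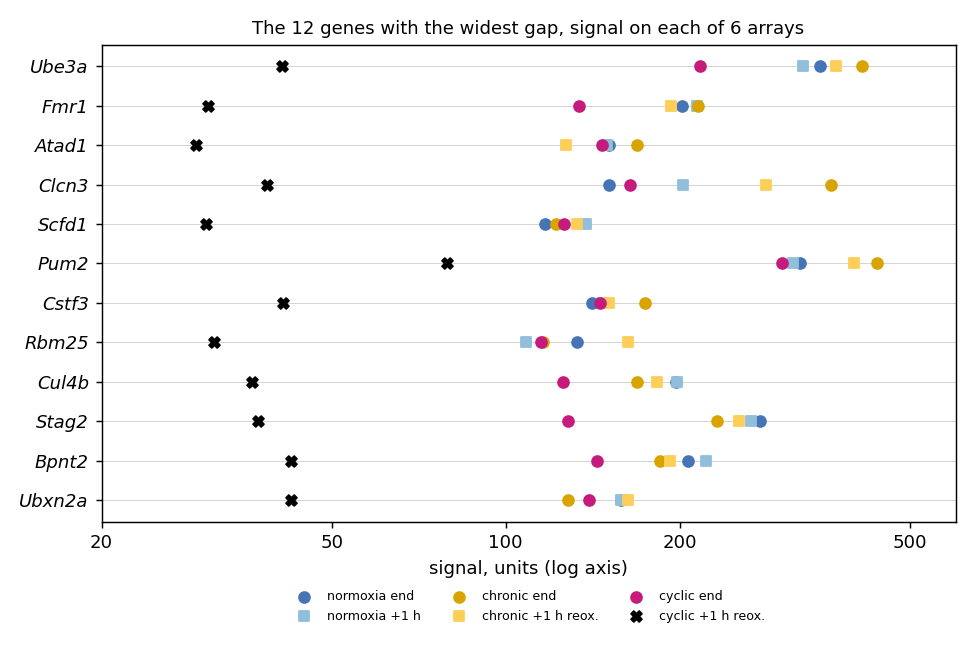
Signal in units (log axis) on each of the 6 arrays for the 12 genes with the widest gap, ordered from the widest (Ube3a) at the top. In every gene the point for cyclic hypoxia plus reoxygenation lies apart to the left, from 29.2 units (Atad1) to 79.0 units (Pum2), and the points of the 5 other arrays lie above 100 units.

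Promoter sequences are shown for the first 4 genes of that order with a single promoter in the reference table, so that the composition described further on can be read in examples. Each runs from 250 bases before to 50 bases after the start of the gene, from RefSeq (GRCm38.p6). Capitals mark matches, on either strand, to the motifs searched. These were ACGTG and, as its variant, GCGTG (the core of the HIF site), CACGTG (the E-box, which contains the first), CCAAT (bound by NF-Y), CCGGAAG (bound by ETS factors), AAGATGGC (bound by YY1), GGGCGG (the box of Sp1), TATAAA (the TATA box), TGACGTCA (the CRE), TTCNNGAA (part of heat shock elements) and the palindrome of NRF1. The Ube3a window is chr7:59228500-59228799 on the plus strand, that of Atad1 is chr19:32712249-32712548 on the minus strand, that of Scfd1 is chr12:51377263-51377562 on the plus strand and that of Cstf3 is chr2:104590234-104590533 on the plus strand.
Ube3a: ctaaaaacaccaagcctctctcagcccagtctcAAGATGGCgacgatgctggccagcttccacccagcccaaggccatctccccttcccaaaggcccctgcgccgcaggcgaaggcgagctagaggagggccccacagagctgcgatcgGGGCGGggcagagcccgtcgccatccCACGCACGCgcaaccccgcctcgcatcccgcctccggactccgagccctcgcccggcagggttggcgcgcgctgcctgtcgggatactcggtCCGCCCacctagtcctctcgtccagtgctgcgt
Atad1: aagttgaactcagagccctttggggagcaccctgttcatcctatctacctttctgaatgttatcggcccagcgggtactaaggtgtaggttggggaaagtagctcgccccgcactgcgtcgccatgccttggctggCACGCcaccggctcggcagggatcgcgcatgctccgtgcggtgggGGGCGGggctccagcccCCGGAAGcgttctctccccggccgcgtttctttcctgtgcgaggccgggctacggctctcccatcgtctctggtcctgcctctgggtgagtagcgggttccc
Scfd1: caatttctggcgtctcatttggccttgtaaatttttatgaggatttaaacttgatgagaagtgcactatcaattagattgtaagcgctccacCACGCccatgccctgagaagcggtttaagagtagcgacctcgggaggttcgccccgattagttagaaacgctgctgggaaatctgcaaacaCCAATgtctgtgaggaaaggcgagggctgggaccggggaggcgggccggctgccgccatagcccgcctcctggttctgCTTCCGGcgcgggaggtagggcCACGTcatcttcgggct
Cstf3: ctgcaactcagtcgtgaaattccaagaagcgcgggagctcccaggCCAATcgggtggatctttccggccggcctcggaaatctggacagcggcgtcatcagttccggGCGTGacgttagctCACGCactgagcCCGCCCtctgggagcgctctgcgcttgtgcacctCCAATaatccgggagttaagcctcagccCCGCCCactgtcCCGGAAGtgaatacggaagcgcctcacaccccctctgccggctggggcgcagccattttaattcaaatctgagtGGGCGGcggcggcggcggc
Their G+C content was 69.0%, 64.3%, 55.3% and 63.3%. GCGTG matched in all 4, and GGGCGG matched in Ube3a, Atad1 and Cstf3. No TATAAA match was found in these windows.

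The 3 brightest of the chosen genes need separate words. Rpgrip1, named for a protein of the photoreceptor cilium, had 1857 and 1884 units in normoxia, 2259 and 2242 in chronic hypoxia, and 1797 and 837 in cyclic hypoxia. Its 3 other probe sets had mean signals of 1.88, 3.72 and 4.10 units, so the bright probe set stands alone and its gene name is uncertain. Lamp2, a membrane protein of lysosomes, had 1224 and 1045 units in normoxia, 537 and 1234 in chronic hypoxia, and 716 and 325 in cyclic hypoxia. At this probe set it was the 1 chosen gene 2-fold or more lower at the end of chronic hypoxia. Its other probe sets of mean signal 50 or more had 773, 242 and 68.6 units in normoxia at the end of exposure. At the end of chronic hypoxia they had 785, 170 and 35.8 units. Ddx3x, an RNA helicase used in translation initiation, had 857 and 642 in normoxia, 841 and 996 in chronic hypoxia, and 709 and 316 in cyclic hypoxia.

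The next in brightness were Tnks2 (a poly-ADP-ribosylating tankyrase), Cggbp1 (a protein that binds CGG repeats), Vps35 (the core of the retromer that returns cargo from endosomes), Tfrc (the transferrin receptor) and Trip12 (a ubiquitin ligase). Their gaps were 1.06, 1.11, 1.11, 1.17 and 1.03, close to the limit. Tnks2 was on the high side at the end of cyclic hypoxia, with 599 and 804 units in normoxia, 951 and 673 in chronic hypoxia, and 870 and 322 in cyclic hypoxia. Tfrc went from 649.8 and 678 in normoxia to 555 and 546 in chronic hypoxia and 433 and 192 in cyclic hypoxia.

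The rule set aside 134 bright symbols, some splicing factor and vesicle traffic families among them, of which 10 met its limit, so the shares of the lists hold for the genes left. Of 90 eligible genes for splicing factors and other RNA-binding proteins, 13 (14.4%) were chosen, against 4.3% of all eligible genes. The median log2 difference of the 90 genes against normoxia plus 1 h was -0.23, and it was -0.04 with the arrays centred on their medians. Over all eligible genes these medians were 0.04 and 0.22. Matr3, a nuclear matrix protein, had 458 and 432 units in normoxia, 262 and 394 in chronic hypoxia, and 249 and 76.8 in cyclic hypoxia. Mbnl1, a muscleblind splicing regulator, had 506 and 494, then 510.0 and 552, then 443 and 188. The level of Matr3 was thus also lower at the end of chronic hypoxia, with a higher value 1 h later, and that of Mbnl1 was level until the last array. The remaining members were Ddx3x, Pum2, Fmr1, Rbm25, Syncrip, Rbms1, Ptbp3, Fxr1, Ythdf3, Dhx36 and Rbm39, with signals of 30.6 to 316 units on the last array. Fxr1, a relative of Fmr1 picked for naming after its values were seen, had 125 and 151 in normoxia, 143 and 130.5 in chronic hypoxia, and 135 and 46.6 in cyclic hypoxia.

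Of 39 eligible genes for messenger 3′ end formation and decay, 3 (7.69%) were chosen. Beside Cstf3, these were Cnot6 and Cnot6l, the paired CCR4-type catalytic subunits that shorten poly(A) tails in the CCR4-NOT complex. Cnot6 had 538 and 488 units in normoxia, 380.0 and 426 in chronic hypoxia, and 246 and 97.1 in cyclic hypoxia. Cnot6l had 186 and 220.0, then 217 and 258, then 149 and 57.7. Both were at their lowest in the cyclic arrays, and Cnot6 was already 2-fold lower at the end of the cycles. Other subunits of the complex, picked after their values were seen, did not meet the rule. The alternative catalytic subunits Cnot7 and Cnot8 had log2 differences of -0.92 and 0.02 against normoxia plus 1 h, and Cnot2, Cnot4 and Cnot9 had -0.25, -0.24 and 0.16. The median of the list was -0.20 against normoxia plus 1 h, and -0.02 with median centring.

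Ubiquitin conjugation gave 11 of 124 eligible genes (8.87%). Usp1, a deubiquitinase of DNA repair proteins, had 564 and 576 units in normoxia, 498 and 509 in chronic hypoxia, and 521 and 159 in cyclic hypoxia. Uba3, the catalytic subunit of the enzyme that activates NEDD8, had 228 and 253, then 313 and 222, then 232 and 71.4. Marchf6, a ligase of the endoplasmic reticulum, lay near the limit, at 316 and 398, then 470.2 and 397, then 362 and 179. In these 3 genes the end of cyclic hypoxia was within the range of the other arrays. The others were Ube3a, Rnf2, Usp47, Arih1, Cul4b, Ubxn2a, Klhl42 and Otud4. The median of the 124 genes was -0.07 against normoxia plus 1 h and 0.12 with median centring, so no direction is given for the list as a whole.

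Of 33 eligible genes for the nuclear pore and transport, 4 (12.1%) were chosen, and all 4 encode transport receptors of the importin beta family. Xpo1, the main exporter of proteins with nuclear export signals, had 341 and 322 units in normoxia, 297 and 301 in chronic hypoxia, and 170.3 and 68.8 in cyclic hypoxia. Ipo7, an importer, had 411 and 409, then 371 and 418, then 205 and 98.7. These receptors were lower by 1.00 on the log2 scale at the end of the cycles than in normoxia at the same collection. Cse1l, which returns importin alpha to the cytoplasm, had 320 and 322, then 316 and 280.0, then 240.5 and 107. Tnpo1, the importer of several RNA-binding proteins, had 179.6 and 178, then 173 and 224, then 141 and 50.9. Other receptors and adaptors picked after their values were seen, Kpnb1, Kpna2, Ipo5, Xpo7 and Xpot, had differences of 0.03, -0.50, -0.01, -0.14 and 0.52 against normoxia plus 1 h. The median over the 33 genes was -0.22, and -0.03 with median centring.

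Cell cycle, chromosome and DNA repair genes gave 8 of 95 (8.42%), with a median over the list of -0.25, and -0.06 with median centring. Top2a and Top1, the DNA topoisomerases that relieve twisting, had 514 and 533 units against 156 and 179 in normoxia. They had 524 and 521 against 168 and 178 in chronic hypoxia, and 360 and 152 against 122 and 49.5 in cyclic hypoxia. Both were level through chronic hypoxia, lower at the end of the cycles and lowest on the last array. Stag2 had 275 and 266 in normoxia, 232 and 253 in chronic hypoxia, and 128 and 37.3 in cyclic hypoxia. Its paralog Stag1, picked after its values were seen, had 134 and 109, then 127 and 128, then 88.7 and 39.3. Rad21, a bright core subunit of cohesin also picked after its values were seen, did not meet the rule, at -0.36 against normoxia plus 1 h and 0.01 against the end of the cycles. Cohesin genes with a mean under 100 units could not enter the set. Of these, Smc3, Pds5a and Nipbl were 2-fold or more lower in all 3 comparisons, at -1.59, -1.59 and -1.87 against normoxia plus 1 h. Smc1a was at -0.63, and the mean signal of Nipbl was 10.4 units. Ncapg2, a subunit of condensin II, had 191 and 165 units in normoxia, 122 and 159 in chronic hypoxia, and 78.4 and 25.003 in cyclic hypoxia. The others were Rfc1, Cep55 and Cdc37l1, the last a co-chaperone that entered the list by its symbol.

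Kinases gave 6 of 67 (8.96%), Rps6ka3, Nek7, Hipk3, Met, Plk4 and Taok1. Rps6ka3, which encodes the RSK2 kinase downstream of ERK, had 309 and 360 units in normoxia, 309 and 313 in chronic hypoxia, and 151 and 66.1 in cyclic hypoxia. Another probe set of Rps6ka3 had 73.7 and 67.5, then 103 and 93.3, then 122 and 66.0. Nek7, a mitotic kinase that also serves the NLRP3 inflammasome, had 219 and 253, then 237 and 269, then 206 and 66.5. Met, the receptor of hepatocyte growth factor, ran the other way before the last hour, with 128 and 151 in normoxia, 176 and 160.2 in chronic hypoxia, and 207 and 71.4 in cyclic hypoxia. Its highest value of the 6 was at the end of the cycles and its lowest 1 h later. Hipk3, a nuclear kinase, had 66.5 units on the last array and 172 to 237 on the others.

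Phosphatases and RAS feedback inhibitors gave 3 of 61 (4.92%), a share near that of all eligible genes. These were Spred1, an inhibitor of the RAS pathway, with 106 units on the last array and 221 to 304 on the others, Ppp6c, with 65.6 and 139 to 173, and Mtmr6, a phosphoinositide phosphatase, with 55.3 and 111 to 157. None of the 3 stayed in the set under quantile normalization or median centring.

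Vesicle traffic gave 5 of 116 (4.31%), also at the background, Vps35, Arfgef1, Lman1, Dnm1l and Ap3m1. Dnm1l, the dynamin that divides mitochondria, had 203 and 148 units in normoxia, 160.3 and 175 in chronic hypoxia, and 97.9 and 39.7 in cyclic hypoxia. Arfgef1, an exchange factor for ARF GTPases, had 204 and 200.3, then 197 and 230.1, then 120.4 and 59.2. Both were at their lowest on the 2 cyclic arrays. The other subunits of the Vps35 complex, Vps26a and Vps29, picked after their values were seen, differed by -0.64 and 0.10 against normoxia plus 1 h, and Vps35 by -1.31.

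Carriers and channels gave 4 of 83 (4.82%). Slc12a2, a sodium, potassium and chloride cotransporter, had 198 and 279 units in normoxia, 263 and 324.5 in chronic hypoxia, and 286 and 99.4 in cyclic hypoxia. Slc25a46, a protein of the mitochondrial outer membrane, had 382 and 360.2, then 304 and 336, then 315 and 117. Abce1, a ribosome recycling factor that entered by its symbol, had 69.8 units on the last array and 193 to 248 on the others. The proteasome and chaperone list gave 2 of 90 (2.22%), the proteasome activator Psme4 and the ribosome-associated Dnajc2.

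Transcription factors gave 5 of 86 (5.81%) and chromatin modifiers 2 of 59 (3.39%). Cebpg, a bZIP factor, had 121 and 119 units in normoxia, 174 and 166 in chronic hypoxia, and 90.6 and 31.4 in cyclic hypoxia. Nr1d2, a circadian repressor, had 246 and 178, then 201 and 211, then 136 and 60.6. Atf2, a CREB-family factor, was level at 171 to 190 units on 5 arrays and at 70.8 on the last, and Bclaf1 had 47.9 units there against 106 to 172 elsewhere. Mef2a was the fifth. Smarca5, an ATPase that slides nucleosomes, had 136 and 123 in normoxia, 112 and 143 in chronic hypoxia, and 78.4 and 27.8 in cyclic hypoxia. Arid2, a subunit of a SWI/SNF complex, was instead high at the end of both hypoxic regimes, with 164 and 208, then 307 and 233, then 279.5 and 90.7.

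Some lists gave nearly no member. Mitochondrial and metabolic enzymes gave 1 of 211 (0.474%), Echdc1, with 44.7 units on the last array and 103 to 133 elsewhere. The cytoskeleton list gave 1 of 82 (1.22%), Myo5a, the motor that carries melanosomes, with 251 and 235 in normoxia, 176 and 264 in chronic hypoxia, and 214 and 99.4 in cyclic hypoxia. None of 48 ribosomal and elongation factor genes was chosen. Their median against normoxia plus 1 h was 0.23, and 0.00 under quantile normalization. In all, 68 chosen genes fell in 14 of 15 families and 80 in none.

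Of 28 eligible immediate-early and other short-lived genes, 0 were chosen. The rule set aside some short-lived messengers, and with 4.3% of all eligible genes chosen a list of this size can hold none, so nothing is read from that count. In this list 6 genes stood 2-fold or more above normoxia plus 1 h on the last cyclic array and 1 below, against 0.989% and 7.41% of the eligible genes, and the median was 0.58. Chronic hypoxia plus reoxygenation gave a median of 0.51 against the same control. The last cyclic array differed from chronic hypoxia plus reoxygenation by a median of 0.08. Egr1, an immediate-early transcription factor, was the 1 eligible gene 2-fold or more above all 3 arrays of the rule, with 52.1 and 35.2 units in normoxia, 99.0 and 93.1 in chronic hypoxia, and 43.7 and 333 in cyclic hypoxia. Its signals on the other arrays were all under 100 units, so Egr1 was eligible only through the array on which it was high. Of 27 HIF targets, 1 was chosen (Tfrc). Their median was 0.38 on the last array and 1.23 at the end of chronic hypoxia against normoxia, with 15 of 27 being 2-fold or more higher there. None of 12 housekeeping genes was chosen, with a median of 0.18 that turned to -0.00 under quantile normalization. For chronic hypoxia plus reoxygenation their median was 0.21 against normoxia plus 1 h. A list of 12 can also hold none at a share of 4.3%, so nothing is read from that count.

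Some chosen genes come from one protein family or complex, and these sets were picked after their values were seen. Pura and Purb, which bind purine-rich single strands, had 35.9 and 92.0 units on the last array, with log2 differences of -2.16 and -2.12 against normoxia plus 1 h. Bmi1 and Rnf2, of the Polycomb complex that ubiquitylates histone H2A, differed by -1.49 and -1.16. Pcgf6, of a related complex and not chosen, differed by 0.15. Cbx1, a heterochromatin protein and also not chosen, differed by -0.70. Of the striatin complex with protein phosphatase 2A, Strn3, Mob4 and Slmap differed by -1.76, -2.01 and -1.68, and Strn4, Ppp2r1a and Ppp2ca by 0.17, 0.28 and -0.11.

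The limit of the rule did not set how the genes stood at the end of either hypoxic regime against normoxia. At the end of chronic hypoxia the median log2 difference of the 148 genes was -0.02, and 1 gene was 2-fold or more lower and 1 higher, against 0.407% and 1.4% of the eligible genes. At 1.5-fold, 10 were lower and 7 higher, against 3.29% and 4.97%. These arrays entered the rule through the mean signal alone. The next comparison is between 2 arrays that the rule used, each as a level to stand 2-fold above the last cyclic array, and it is a description. After chronic hypoxia with reoxygenation the median was 0.01 against normoxia plus 1 h, with none of the 148 genes 2-fold or more lower or higher (0.0582% and 1.02% of the eligible genes). At 1.5-fold in that comparison, 3 were lower and 4 higher, against 1.89% and 2.97%. Within the last hour of chronic hypoxia's reoxygenation, 1 gene (Lamp2) was 2-fold or more higher and none lower, against 0.32% and 0.174%. The last hour of normoxia gave a median of -0.00, and the SD of that difference over all eligible genes was 0.209.

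At the end of the cycles, before the last hour, the genes stood below normoxia more often than not. The median was -0.32, 115 of 148 genes were below 0, and 13 were 2-fold or more lower and none higher, where the eligible genes had 1.45% lower and 0.96% higher. Against the end of chronic hypoxia, 6 genes were 2-fold or more lower and none higher, with 0.931% and 0.145% of the eligible genes. At 1.5-fold against normoxia, 43 were lower and 2 higher, against 6.75% and 7.01%. The cyclic end array was the second lowest of the 6 in 93 genes, a position it held in 710 (20.6%) of the eligible genes. That share is not a like background for the 93 genes. The last cyclic array was the lowest in all 148 chosen genes and in 27.5% of the eligible genes. The rule required this array to be 2-fold or more above the last array and put no limit on it against normoxia. The 13 genes were Trp53inp1, Ncapg2, Cav2, Prps1l3, Zranb2, Cnot6, Stag2, Dnm1l, Rps6ka3, Rc3h2, B230219D22Rik, Ipo7 and Xpo1. The name of Prps1l3 is that of the array's annotation and is uncertain. Another probe set of Rps6ka3 was instead higher at the end of the cycles than in normoxia. The lowest was Trp53inp1, a p53-induced protein of autophagy, with 498 and 401 units in normoxia, 270.0 and 292 in chronic hypoxia, and 185 and 67.0 in cyclic hypoxia. Cav2, a caveolin, had 724 and 553, then 435 and 489.9, then 323 and 143. In the other direction, 17 genes were above both normoxia arrays at the end of the cycles, with Arid2 and Met the highest at 0.77 and 0.69.

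**Figure D3:**
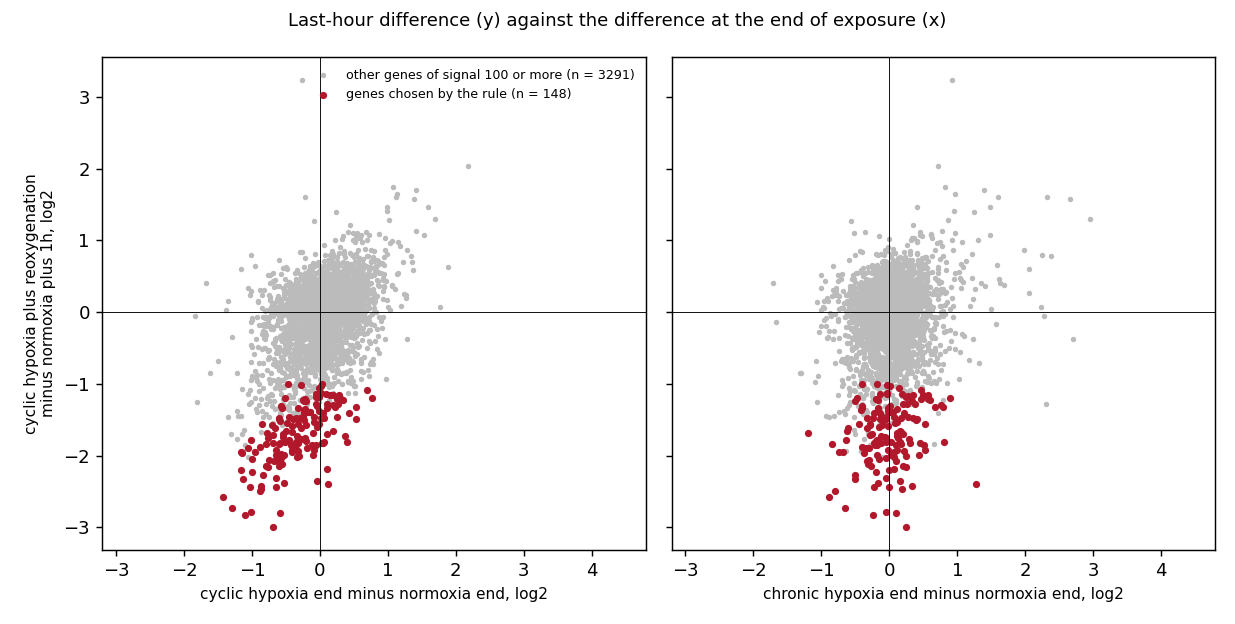
Each point is an eligible gene, grey for the 3291 others and red for the 148 chosen genes. The y axis is the log2 difference of cyclic hypoxia plus reoxygenation from normoxia plus 1 h, and the x axis the log2 difference from normoxia at the end of exposure for chronic hypoxia in one panel and cyclic hypoxia in the other. The red points lie at -1.004 or lower on the y axis by choice. Along the x axis they centre on -0.02 for chronic hypoxia and on -0.32 for cyclic hypoxia.

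Across genes, the difference at the end of the cycles and that after the last hour share no array. Their Pearson correlation was 0.44 over all 3439 eligible genes and 0.41 over the 3291 that were not chosen. For chronic hypoxia the same pair of differences gave 0.38 over all 3439. Genes are not independent replicates, and the cultures of a regime share their handling, so these values are descriptions.

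Other probe sets of the same genes read the same arrays at other positions of the transcript. There were 88 with a mean signal of 50 or more, for 66 of the chosen genes, and 82 genes had none. Of the 88, 85 were lower on the last cyclic array than on all 3 arrays of the rule and 37 (42.0%) were 2-fold or more lower than all 3. A further 27 met that limit against 2 arrays, 8 against 1 and 16 against 0. Among other probe sets of eligible genes that were not chosen, 56 of 1785 (3.14%) were 2-fold or more lower than all 3. The other probe sets of Ddx3x, Matr3, Pum2 and Xpo1 all met the limit. The other probe set of Xpo1 had 275 and 258 units in normoxia, 300.2 and 232 in chronic hypoxia, and 154 and 63.1 in cyclic hypoxia.

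In 15 genes another probe set met the limit against none of the 3 arrays. Lamp2 had other probe sets at 31.9%, 74.2% and 102% of the lowest of the 3 arrays. Those of Rps6ka3, Ppp6c, Bet1, Syncrip and Arih1 that did not meet the limit were at 97.7%, 121%, 90.7%, 104% and 90.7%. The others with such a probe set were Tm9sf3 (a membrane protein of the secretory pathway), Fundc1 (a receptor for mitophagy), Psme4, Purb, Prps1l3, Fam91a1, Lman1, Mtmr6 and Sppl2a. For these genes the decrease is a measurement of the brightest probe set and not of every transcript of the gene.

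**Figure D4:**
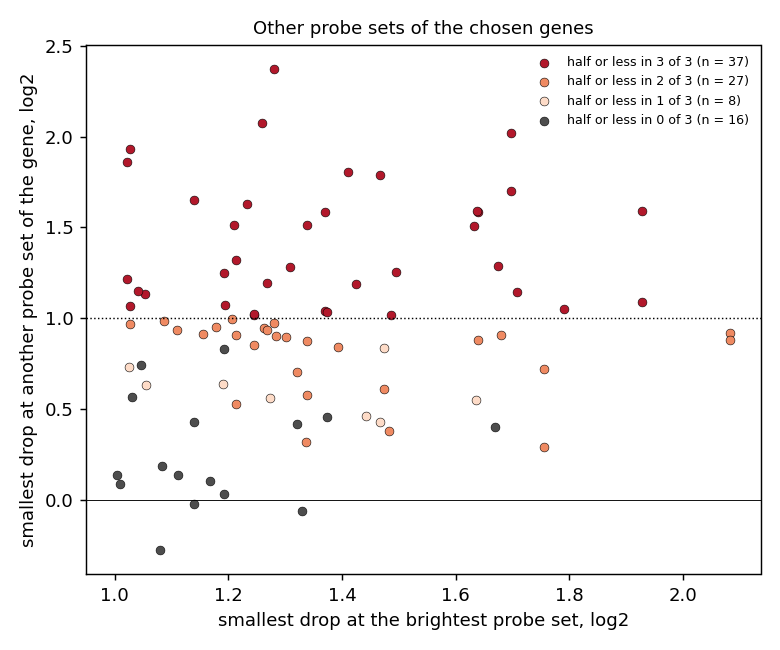
Gap of the brightest probe set (x axis, log2) against the gap of each other probe set of the same gene with a mean signal of 50 or more (y axis, log2), 88 points for 66 genes, coloured by how many of the 3 comparisons reached 2-fold. Of these, 37 points lie at or above 1 on the y axis, and 3 points lie below 0.

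The kind of brightest probe set differed. Plain probe sets, designed against a single transcript, were 82.4% of the chosen genes and 60.8% of the eligible genes, and probe sets shared by several transcripts of a gene were 7.43% and 23.6%. With the brightest plain probe set taken for every gene, 134 genes met the rule.

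The chosen genes span more of the genome than the others. By RefSeq annotation (GRCm38.p6) the median distance from the first to the last base of the gene was 49.2 kb for the 148 genes, with a middle range of 28.2 to 75.003 kb, and 18.2 kb (8.16 to 38.6 kb) for 3290 eligible genes that were not chosen. A span of 100 kb or more was found in 22 (14.9%) and 235 (7.14%). When the eligible genes were ordered by span and cut into 4 equal groups, the chosen genes were 0.581%, 2.33%, 4.66% and 9.65% of them from shortest to longest. Longer genes were also dimmer, with median signals of 384, 254, 237 and 191 units in the 4 groups. Within ranges of mean signal the chosen genes still had the longer median span, 47.1 kb against 24.6 kb at 100 to 150 units, 61.2 against 20.8 at 150 to 250, 30.4 against 18.6 at 250 to 500, and 39.1 against 11.7 above. With plain probe sets alone the medians were 49.5 and 20.1 kb. Protein lengths were not analysed here.

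The groups by span also differed in the genes that were not chosen. The median log2 difference of cyclic hypoxia plus reoxygenation from normoxia plus 1 h, without the 148 genes, was 0.16, 0.10, -0.01 and -0.14 from the shortest to the longest group. With the arrays centred on their medians these became 0.35, 0.28, 0.17 and 0.02, so the order was kept and the sign of the last 2 groups was not. Over all eligible genes, chronic hypoxia plus reoxygenation gave -0.08, -0.07, -0.03 and 0.04 in the same groups, and the end of the cycles gave -0.00, 0.02, 0.08 and 0.06. The last hour of normoxia gave 0.07, 0.04, 0.02 and 0.02, a smaller step in the same direction as that of the last cyclic array.

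**Figure D5:**
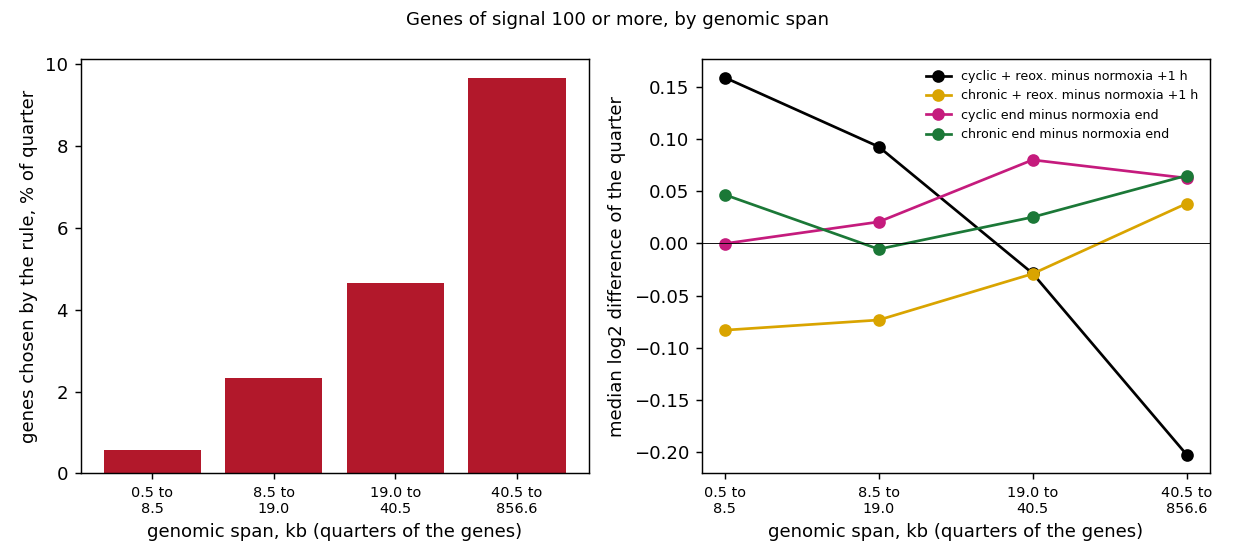
Eligible genes in 4 equal groups by genomic span in kb (x axis). The bars give the percent of genes in each group that met the rule, 0.581% to 9.65%, and the lines the median log2 difference of all genes in the group, from 0.16 to -0.20 for cyclic hypoxia plus reoxygenation against normoxia plus 1 h and within -0.08 to 0.08 for the other 3 differences.

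Promoters of 119 of the 148 genes were in the reference table, 143 windows in all. Their median G+C content was 66.7%, against 61.3% for 3487 windows of 2744 eligible genes that were not chosen and 52.7% for all 32851 windows of the table. In 4 groups of genes by promoter G+C, the chosen genes were 2.81%, 2.39%, 4.20% and 7.30% from the lowest to the highest. The share of windows with a motif was close for most motifs. GGGCGG was found in 67.8% of the windows of chosen genes and in 67.4% of those of the other eligible genes, against 35.7% of the table. GCGTG had 58.7%, 54.9% and 32.4%, ACGTG 30.1%, 28.2% and 19.6%, and CACGTG 11.2%, 11.4% and 7.15%. CCAAT was found in 30.1%, 38.5% and 37.4%, CCGGAAG in 18.9%, 22.1% and 8.86%, and TATAAA in 4.20%, 7.03% and 13.6%. TGACGTCA had 4.90%, 3.30% and 1.79%, the NRF1 palindrome 2.80%, 2.67% and 0.971%, AAGATGGC 5.59%, 5.39% and 2.75%, and TTCNNGAA 6.29%, 6.71% and 8.52%. A match is a stretch of letters and does not show that a factor binds there.

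How many genes met the rule depended on how the arrays were scaled. The median signal over all probe sets was lowest on the last cyclic array, and centring the arrays on their medians moved the median of the eligible genes up by 0.19, 0.17 and 0.20 in the 3 comparisons. The rule then held for 91 genes, and for 102 after quantile normalization. Against normoxia plus 1 h, 255 eligible genes were 2-fold or more lower (7.41%) and 34 higher (0.989%) as deposited, and 190 and 59 with centring, so that the lower share of these genes went from 88.2% to 76.3%. Against chronic hypoxia plus reoxygenation the counts were 309 lower (8.99%) and 17 higher (0.494%), then 223 and 58, or 94.8% and 79.4% lower. Against the end of cyclic hypoxia, 200 were lower (5.82%) and 9 higher (0.262%), then 121 and 20. By family, RNA-binding proteins gave 12 genes under quantile normalization and 10 with centring, ubiquitin conjugation gave 8 and 7, nuclear transport 3 and 2, and vesicle traffic 2 and 1.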

How the data were processed

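Total RNA (5 µg per array) was labelled as biotin cRNA and hybridised, per the labels' protocols. The deposited values are array intensities on a linear scale, 1 column per array over 22690 probe sets, made with GCOS per the submitters' processing notes, with its version and algorithm not given in the sources used here. The trimmed mean of each column, 2% left out at each end, was 100 units, so the authors' scaling was kept, and differences are relative to the other transcripts of an array. All 6 columns were mapped to a sample.

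Gene names came from the platform annotation, which gave 1 gene for 20393 probe sets, several for 691 and none for 1606. Entrez identifiers led to a current symbol for 20364. The brightest probe set stood for its gene. Before log2 differences were taken, a floor of 2.10 units (percentile 20 over the whole table) replaced smaller values. The work was done in Python 3.11.15 with pandas 2.3.3 and numpy 2.4.6, and plots were drawn with matplotlib 3.10.9. With 1 array per group no test was made, and array number limits the precision.

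The chosen genes, the gene lists and the rule for naming genes were set with earlier results of these data known. Named were the 12 genes with the widest gap, the 8 brightest, up to 4 per family by signal, 3 on each side of the limit, those 2-fold or more different at the end of chronic hypoxia, and up to 6 whose other probe sets did not meet the limit, by signal. Others are named as chosen after their values were seen. Families were matched by symbol patterns. Genomic spans and promoters came from RefSeq (GRCm38.p6). The genome and protein sequences were not used here. The alternatives were quantile normalization, median centring, other floors (1 and 10 units), other signal and fold limits and other probe set choices.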

Additional observations from a re-analysis of the deposited data

Results flagged for a closer look

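Of 534 probe sets with a mean signal of 100 or more that name several genes or none, and that no comparison used, 18 (3.37%) were 2-fold or more lower on the array of cyclic hypoxia plus reoxygenation than on all 3 arrays of the rule, and 0 were higher. The share among eligible genes was 4.3%. The control probe sets for poly(A) transcripts, which stand outside the genes, averaged 2.20 times their normoxia end level on that array and 1.80 times at the end of cyclic hypoxia. Lamp2 moved in opposite directions in the last hour, by 1.20 on the log2 scale after chronic hypoxia and by -1.14 after cyclic hypoxia. That difference rests on 1 array each and was not tested, and 2 of its 3 other probe sets were within 2-fold of all arrays of the rule on the last cyclic array. Over the last hour after chronic hypoxia, these 3 probe sets went from 785 to 1055, 170 to 193 and 35.8 to 67.6 units.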

How the results depend on the processing

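No paired analysis was possible because each group holds 1 array, and for the same reason no array could be left out of a group. The rule held for 148 genes, and for 91 with median centring, 248 with a mean signal of 50 or more, 65 with 200 or more, 367 with a limit of 1.5-fold and 28 with a limit of 3-fold. It held for 102 to 170 under the other planned settings. With 1 comparison array left out of the rule, chosen after seeing the data, it held for 157 to 220 genes. Eligible genes 2-fold or more lower against the end of cyclic hypoxia numbered 200, and 121 with median centring. The cause was not tested. For the 62 named genes, the gap was compared with the SD between the normoxia arrays (0.209). It moved by less than that in 56 under quantile normalization and in 48 with the median over probe sets. Median centring shifts every gene by the same amount in a comparison, here by 0.19, 0.17 or 0.20. These shifts are below that SD, so all 62 genes stayed within it by construction and nothing is read from that count. Floors of 1 and 10 units could not move the gap, since the lowest signal was 25.003 units. A gap of 1 or more was kept by 45 of 62 under quantile normalization, 38 with median centring and 53 with the median over probe sets. Genes near 100 units lie closer to background, and without replicates the error of a single difference is unknown.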
